A study of Mus musculus with 6 samples.

Results

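A circular RNA microarray also carries a small panel of probes for ordinary linear transcripts, and these were read here in hippocampal RNA that had been digested with RNase R. The panel was taken by its probe names, which begin with A_5, among spots that are not scanner controls. It held 50 probes, each spotted 10 times per array, out of 14330 probes that are not controls, of which 14236 target circular RNAs (circRNAs) and 15 are named as negative. Through their transcript accessions 44 of the 50 matched a gene symbol in RefSeq (GRCm38.p6), and 6 did not and are given by probe name.

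The hippocampus of C57BL/6 mice was taken at postnatal day 7. Per the labels 3 samples came from mice given 3% sevoflurane, an inhaled anaesthetic, for 4 h in 1 unbroken exposure, and 3 from mice that did not receive it. All 6 were treated with RNase R and amplified with random primers. The labels do not say whether a sample is 1 animal or a pool, nor how long after the exposure the tissue was taken, so a p-value here covers no more than the spread among these 6 arrays, part of which may be technical.

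RNase R is an exonuclease that digests RNA from a free 3′ end. Linear messenger RNAs have such an end, whereas circRNAs, whose exons are joined back on themselves, do not, so the digestion is used to enrich circles. Long or tightly folded linear RNAs can resist the enzyme, and an exonic probe reads a linear transcript and a circle that contains the same exon alike. Undigested RNA was not analysed here, so the share of each transcript that outlasted the enzyme was not measured, and in tissue RNA fewer cells of a type and less RNA per cell cannot be told apart.

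Signals are given as multiples of the 75th percentile that circRNA probes reached on the same array, which lay between 51.6 and 80.0 intensity units, with control 1 the brightest array. Probes differ in how well they bind, so an order of signals is an order of probes and not of RNA amounts. A probe was called measured on an array when the scanner software marked 50% or more of its spots as well above background.

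Most of the linear panel gave a signal after digestion, over a wide range of the circRNA signals. Of the 50 linear probes, 27 (54.0%) were measured on all 6 arrays, 34 on 3 or more, 4 on 1 or 2 and 12 (24.0%) on none. Among the circRNA probes 74.7% were measured on all 6 arrays and 10.4% on none, and among the 15 negative probes 2 were measured on all 6 arrays, 4 on 3 or more and 11 on none. The median linear probe had a mean signal of 0.220, compared with 0.408 for circRNA probes and 0.0353 for negative probes. It lay at the 31.2nd percentile of the circRNA probes, and the quartiles of the linear panel lay at 12.8 and 59.2, probes that were not measured included. Of the 50, 21 lay above the median circRNA probe, 3 of them above the 95th percentile, and 23 lay below the 25th percentile. On single arrays between 29 (sevoflurane 3) and 36 (sevoflurane 2) linear probes were measured, and each of the other 4 arrays had 33. The ranges of the groups overlapped, with the controls all at 33.

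**Figure D1:**
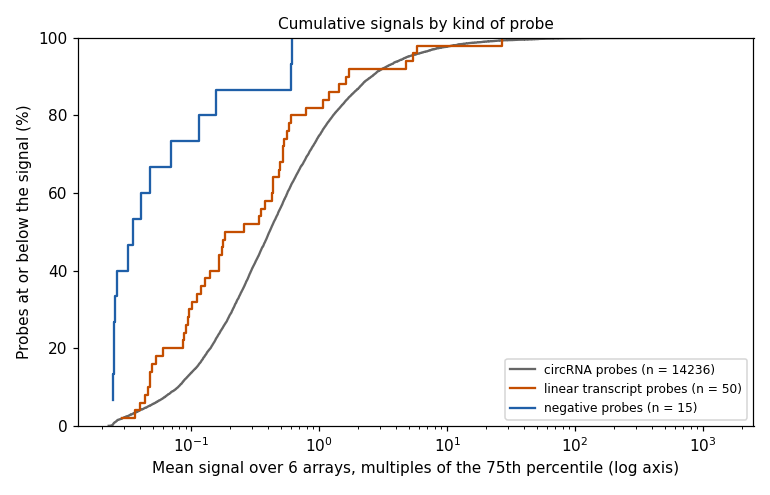
Cumulative share of probes (vertical axis, percent) against the mean signal over 6 arrays (horizontal axis, multiples of the 75th percentile, log axis) for 14236 circRNA probes, 50 linear transcript probes and 15 negative probes. The linear curve lies between the others over most of the range, with medians of 0.220, 0.408 and 0.0353 for linear, circRNA and negative probes, respectively.

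The panel was spread widely around the negative probes. The brightest 2 of these had mean signals of 0.608 and 0.605 and the next 0.156. Of the linear probes 10 had a mean above the brightest negative probe and 30 above the one at 0.156. A signal under 0.608 is therefore within the range that probes named as negative reached on these arrays. How much of it came from the named transcript was not tested.

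**Figure D2:**
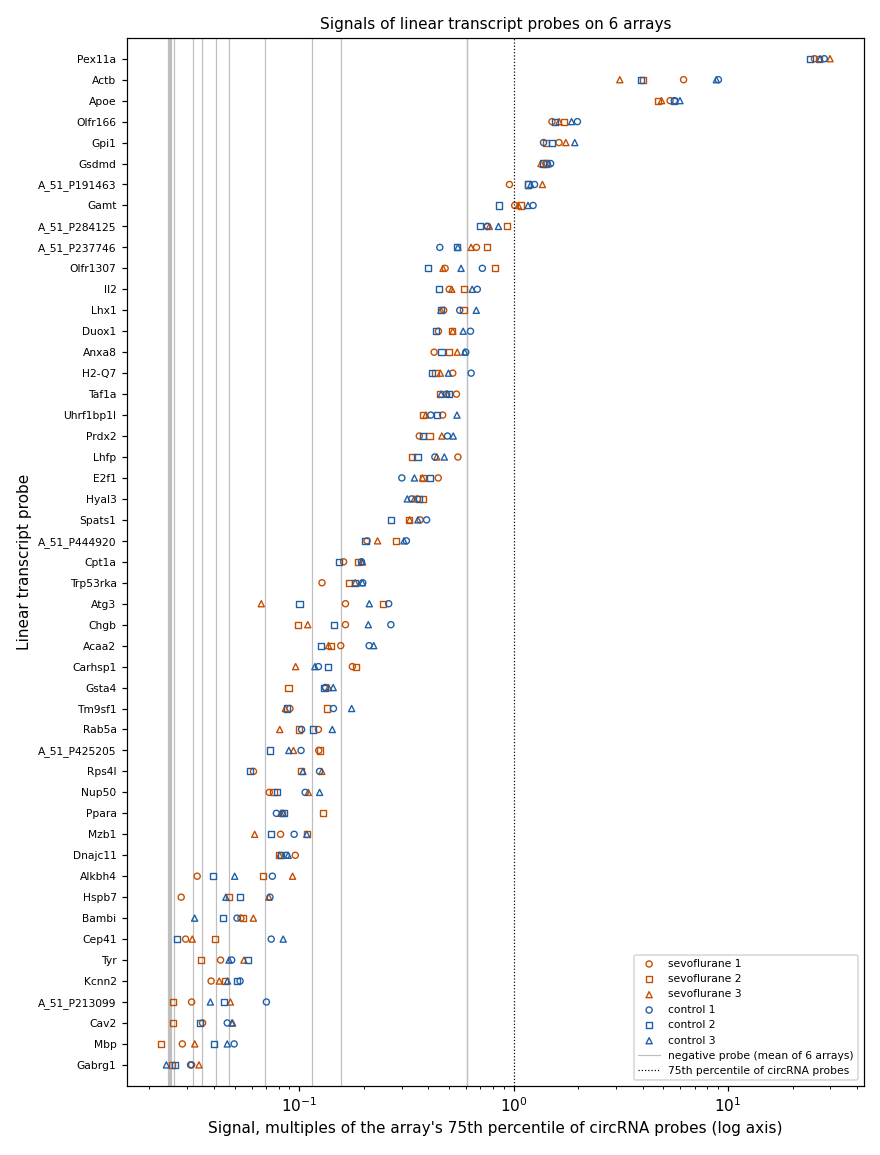
Signal of 49 linear transcript probes (rows, by mean) on 6 arrays, as multiples of the 75th percentile of circRNA probes on the array on a log axis. Circles, squares and triangles are replicates 1, 2 and 3 of the sevoflurane (orange) and control (blue) groups, grey lines are the means of the 15 negative probes, and the dotted line is the 75th percentile. Pex11a, Actb and Apoe lie above 3 on every array, and Gabrg1 and Mbp lie among the negative probes.

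Of the probes above all negative probes, the brightest was that for Pex11a, which encodes a membrane protein of peroxisomes that takes part in their division. Its signal was 25.3, 26.5 and 29.9 on sevoflurane arrays 1 to 3 and 28.1, 24.1 and 26.9 on control arrays 1 to 3. It lay above 99.2% of circRNA probes on every array. The groups overlapped, with control 2 the lowest and sevoflurane 3 the highest array, and the highest array exceeded the lowest 1.24-fold.

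The probe for beta-actin (Actb), a building block of the cytoskeleton, followed with signals of 6.21, 4.02 and 3.13 on the sevoflurane arrays and 9.02, 3.92 and 8.82 on the controls. Controls 1 and 3 were the high arrays, control 2 lay inside the sevoflurane range, and the highest array exceeded the lowest 2.88-fold. Before scaling, the Actb signals were 326, 252 and 161 intensity units with sevoflurane and 722, 212 and 530 in controls, with the same arrays high. Actb belongs to a gene family with near-identical coding sequences and processed pseudogenes, and what else its probe can bind was not tested.

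Apoe, a lipid carrier that astrocytes secrete, had signals of 5.37, 4.71 and 4.90 with sevoflurane and 5.63, 5.59 and 5.97 in controls. Every sevoflurane array lay below every control array, but the highest array exceeded the lowest only 1.27-fold. The Actb signal stood to the Apoe signal of the same array, a ratio that scaling does not touch, at 1.16, 0.853 and 0.639 on the sevoflurane arrays and 1.60, 0.702 and 1.48 on the controls. The ratios of the groups overlapped, with control 2 again inside the sevoflurane range.

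Among the other probes above all negative probes, 1 is not reported here. Olfr166, an olfactory receptor gene, read 1.51, 1.72 and 1.63 with sevoflurane and 1.98, 1.56 and 1.86 in controls. Gpi1, the glycolytic enzyme that interconverts glucose and fructose phosphates, read 1.63, 1.42 and 1.75 with sevoflurane and 1.38, 1.51 and 1.93 in controls. Control 1 was the highest array for Olfr166 and the lowest for Gpi1. Gsdmd, whose cleaved product forms membrane pores in inflammatory cell death, varied 1.11-fold between arrays, with 1.43, 1.41 and 1.34 with sevoflurane and 1.49, 1.38 and 1.46 in controls. A_51_P191463, without a symbol, read 0.956, 1.16 and 1.36 with sevoflurane and 1.25, 1.16 and 1.2 in controls, so that the sevoflurane arrays enclosed the controls. Gamt, which makes the last step of creatine synthesis, averaged 1.07 over the 6 arrays, and A_51_P284125, also without a symbol, 0.792. The groups overlapped for each of these probes.

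Genes that define brain cell types were found at both ends of the range. Of 32 marker genes listed for 9 cell types, 5 had a linear probe: Chgb, Gabrg1 and Kcnn2 for neurons, Apoe for astrocytes and Mbp for oligodendrocytes. Apoe was among the brightest linear probes and Chgb, a secretory granule protein of neurons, was measured on 4 arrays, at a mean of 0.166. The probes for Gabrg1 (a GABA-A receptor subunit), Kcnn2 (a small-conductance potassium channel) and Mbp (a structural protein of myelin) were not measured on any array, with 0 spots well above background and means of 0.0287, 0.0461 and 0.0366. With these probes the labelled tissue could be checked against 5 genes only. The neural and glial set, fixed with earlier results in view, thus had 3 of 6 members measured on 3 or more arrays, the third being Lhx1, a homeodomain transcription factor, at 0.533.

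The set of genes best known from other tissues was grouped after its values were seen and holds 10 genes, of which 7 were measured on 3 or more arrays and 1, Olfr166, lay above all negative probes. Olfr1307, another olfactory receptor gene, averaged 0.575, Il2, a T-cell cytokine, 0.561, Duox1, a hydrogen peroxide-producing oxidase of epithelia, 0.521, Anxa8, a calcium-dependent phospholipid-binding protein, 0.521, and H2-Q7, a non-classical class I histocompatibility gene, 0.493. Spats1, named for spermatogenesis, averaged 0.340. Each of these 6 averaged below the brightest negative probes, at 0.608 and 0.605. Mzb1 of plasma cells and marginal zone B cells, Hspb7, a small heat shock protein of heart and muscle, and Tyr, the enzyme of melanin synthesis, averaged 0.0882, 0.0531 and 0.0477, and of these only Mzb1 was measured on an array, namely 1.

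The metabolic genes were mostly measured. Apart from Pex11a, Gpi1 and Gamt, Cpt1a, which admits long-chain fatty acids to mitochondria, averaged 0.182, and Acaa2, the thiolase of the last step of mitochondrial beta-oxidation, 0.166. Ppara, the nuclear receptor that induces genes of fatty acid oxidation, averaged 0.0902 and was measured on 1 array, sevoflurane 2. Of the 6 metabolic genes 5 were measured on 3 or more arrays. All 4 genes of redox defence, cell death and autophagy were too: Gsdmd, the peroxide-reducing Prdx2 at 0.437, Atg3, an E2-like enzyme that attaches lipid to autophagy proteins, at 0.175, and Gsta4, a glutathione transferase, at 0.128.

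Nuclear, membrane and trafficking genes, which apart from E2f1 and Trp53rka were grouped after the values were seen, held no probe above all negative probes. Taf1a (a subunit of the RNA polymerase I initiation complex), E2f1 (a transcription factor of the cell cycle) and Trp53rka (a kinase of the p53 pathway) averaged 0.489, 0.375 and 0.176, while the nuclear pore protein Nup50 and Alkbh4, a demethylase, at 0.0947 and 0.0598, were not measured on any array. Trp53rka has a closely related copy, Trp53rkb, which its probe may also bind. Of 7 membrane and trafficking genes 5 were measured on 3 or more arrays. Among them were Uhrf1bp1l at 0.437, Lhfp at 0.430 and Hyal3, a hyaluronidase, at 0.349, as well as Tm9sf1 at 0.120 and the endosomal GTPase Rab5a at 0.111. Bambi, a pseudoreceptor of the TGF-beta family, and the caveolin Cav2 were not measured on any array. Neither were Dnajc11 (0.0858), Cep41 (0.0478) and A_51_P213099 (0.0430), whereas A_51_P444920, at 0.258, was measured on all. Around the limit of 3 arrays, Carhsp1 and Tm9sf1 were measured on 3 and passed, at means of 0.139 and 0.120. Rps4l and A_51_P425205 were measured on 2 and did not, at means of 0.0962 and 0.101.

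Linear probes that were measured tended to belong to genes with a short genomic span. A span counts introns and is not the length of a transcript, and its bearing on the digestion was not tested. Many of the measured probes averaged below the brightest negative probe. The 23 genes measured on all 6 arrays had a median span of 7.17 kb in RefSeq (0.939 to 220 kb) and the 11 named genes measured on none 48.2 kb (4.53 to 417 kb). Across the 44 genes, which are not independent replicates, the span and the mean signal had a Spearman correlation of -0.45, given as a description. Olfr166 and Olfr1307 stood at the short end with 0.939 kb each, and Kcnn2 at the long end. Exceptions lay on both sides. Lhfp, with 220 kb, Uhrf1bp1l and Cpt1a exceeded the median span of the unmeasured genes but were measured on all arrays. Rps4l, Mzb1, Hspb7 and Alkbh4 had spans below 7.17 kb but were measured on 2 arrays, 1 array or, for the last pair, none.

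The repeated spots show how precisely a single array reads a linear probe. For Actb the SD of the spots on an array was 0.0503 on the log2 scale (median of 6 arrays), whereas the SD between arrays of a group, pooled over both groups, was 0.60. Apoe had a spot SD of 0.0468 and an array SD of 0.0782. Over the probes measured on 3 or more arrays the median spot SD was 0.12 and the median array SD 0.21, close to the array SD of 0.23 of circRNA probes, which have 1 spot each. In 33 of 34 probes the array SD exceeded 2 standard errors of the spot mean. The spots of the 9 brightest of these probes, with means above 1, had a median SD of 0.0744, and those of the 9 with means below 0.2 a median of 0.25. The spread of most linear probes between arrays was therefore larger than the spread of their spots, and spots were not treated as replicates.

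**Figure D3:**
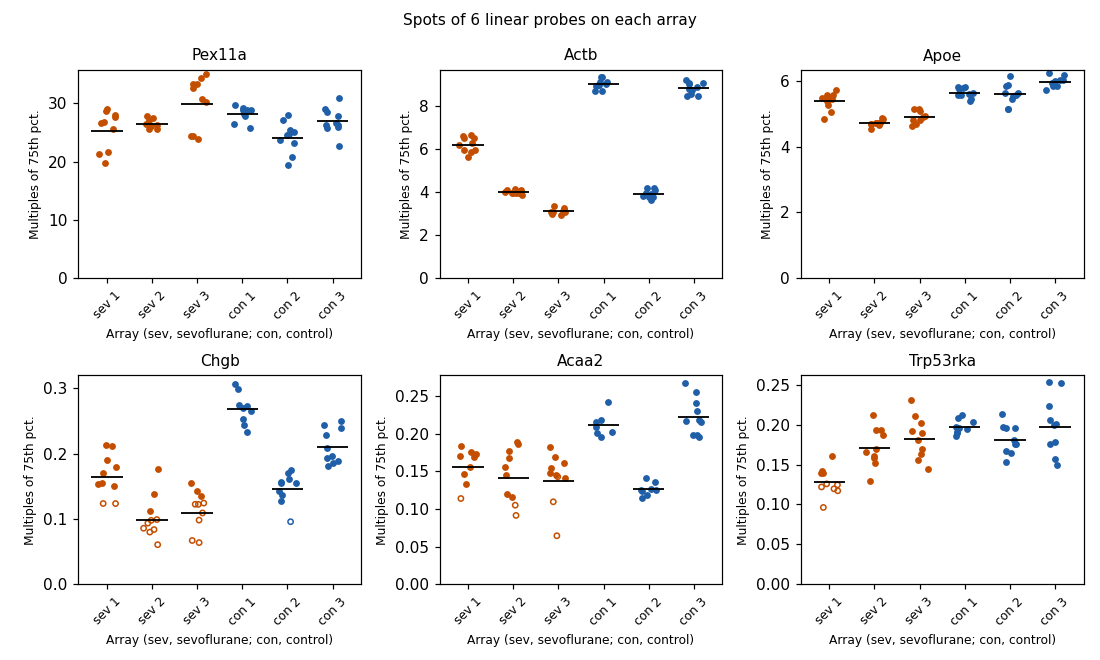
Single spots (points, up to 10 per array after outlier spots were left out) and array means (lines) of 6 linear probes, as multiples of the 75th percentile of circRNA probes on the array, with linear axes from 0. Filled points were well above background and open points were not. Spots of Actb lie close together within each array while the arrays range from 3.13 to 9.02, and several spots of Chgb were not well above background on sevoflurane arrays 2 and 3.

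The comparison of the groups asks whether any of these transcripts differed after sevoflurane. No linear probe passed the test. Of the 34 linear probes measured on 3 or more arrays, 0 were higher and 0 lower with sevoflurane at an adjusted p under 0.05 (limma, Benjamini-Hochberg adjustment over all 12018 probes tested; adjusted p from 0.600 to 0.999). Among all probes tested 0.0% passed. At an unadjusted p under 0.05 (limma) there were 2 of 34 linear probes, 1 higher and 1 lower, which is 5.88% and near the 7.24% of all probes tested. That count was 5 when control 2 was left out, 1 when control 3 was and 0 when either control 1 or sevoflurane 2 was. With arrays weighted by their precision it was 8. The share of all probes tested at that limit is not given for those fits, so these counts cannot be set against it. For 31 of the 34 the 95% confidence interval stayed inside a 2-fold change up or down, and for 22 inside a 1.5-fold change. These intervals describe probe signals. Of the 34 probes 24 averaged at or below the brightest negative probe, so their intervals need not bound a change of the named transcript.

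The probe on the lower side was that for Chgb. Its signals were 0.164, 0.0983 and 0.110 on the sevoflurane arrays and 0.268, 0.145 and 0.210 on the controls. Sevoflurane 1 lay above control 2, so the groups overlapped, and the probe was measured on 1 sevoflurane and 3 control arrays. The controls, where it was higher on average, were thus enough for it to pass the filter of 3 arrays. It was not tested when the filter asked for all 6 arrays. The log2 fold change, sevoflurane minus control, was -0.74 (SE 0.27; 95% confidence interval -1.34 to -0.13; limma, adjusted p = 0.600). The value was -0.11 with normexp background correction and quantile normalization. The offset of 50 intensity units added in that setting shrinks the fold changes of dim probes by construction, here and in the normexp values below. All 6 signals lie below those of the 2 brightest negative probes.

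The probe on the higher side, A_51_P237746, has no symbol. It read 0.671, 0.75 and 0.633 with sevoflurane and 0.453, 0.542 and 0.550 in controls, all sevoflurane arrays above all controls. Sevoflurane exceeded control by 0.41 on the log2 scale (SE 0.16, adjusted p = 0.608 in limma), and by 0.16 with normexp. Negative probe 016 had signals of 0.678, 0.683 and 0.632 with sevoflurane and 0.592, 0.478 and 0.566 in controls, also with all sevoflurane arrays above all controls, as did negative probe 017. The part of this in the value of A_51_P237746 was not tested.

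Actb had the next smallest p, at a mean of 7.26 ± 2.89 (SD, n = 3) in the control group against 4.45 ± 1.58 (SD, n = 3) after sevoflurane. The log2 fold change was -0.67 (SE 0.36; 95% confidence interval -1.48 to 0.14; limma, adjusted p = 0.763). It was -1.06 without control 2 (limma, adjusted p = 0.160), -0.44 without sevoflurane 3, -0.46 without control 1 and -0.48 without control 3. Trp53rka followed, with signals of 0.128, 0.171 and 0.182 with sevoflurane and 0.198, 0.182 and 0.197 in controls. The difference on the log2 scale was -0.28 (SE 0.18, adjusted p = 0.791 in limma), -0.12 without sevoflurane 1 and -0.0328 with normexp. Sevoflurane 1 was the low array for Trp53rka, and it was the only array where the probe was not measured.

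Acaa2 read 0.156, 0.141 and 0.137 with sevoflurane and 0.212, 0.126 and 0.222 in controls. As for Actb, controls 1 and 3 were high and control 2 was low, here the lowest of all arrays. On the log2 scale the difference was -0.33 (SE 0.23, adjusted p = 0.813 in limma), -0.59 without control 2 (limma, adjusted p = 0.149), -0.21 without control 1, -0.18 without control 3 and -0.0583 with normexp. Apoe differed by -0.20 (SE 0.14; 95% confidence interval -0.53 to 0.13; limma, adjusted p = 0.815), although the groups did not overlap.

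The dim trafficking probes Tm9sf1 and Rab5a completed the 8 smallest p. Tm9sf1 read 0.0904, 0.135 and 0.0861 with sevoflurane and 0.144, 0.0878 and 0.175 in controls, a log2 fold change of -0.36 (SE 0.28). Rab5a read 0.123, 0.100 and 0.0811 with sevoflurane and 0.102, 0.116 and 0.143 in controls, a log2 fold change of -0.26 (SE 0.20). With normexp these became -0.0493 for Tm9sf1 and -0.0249 for Rab5a, and with the slide row as a block Rab5a came to -0.0372. With single arrays left out Tm9sf1 ran from -0.65 (control 2) to -0.15 (control 3) and Rab5a from -0.40 (sevoflurane 1) to -0.11 (sevoflurane 3). Groups overlapped for both, and neither passed the adjusted test (limma, adjusted p = 0.825 and 0.828).

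**Figure D4:**
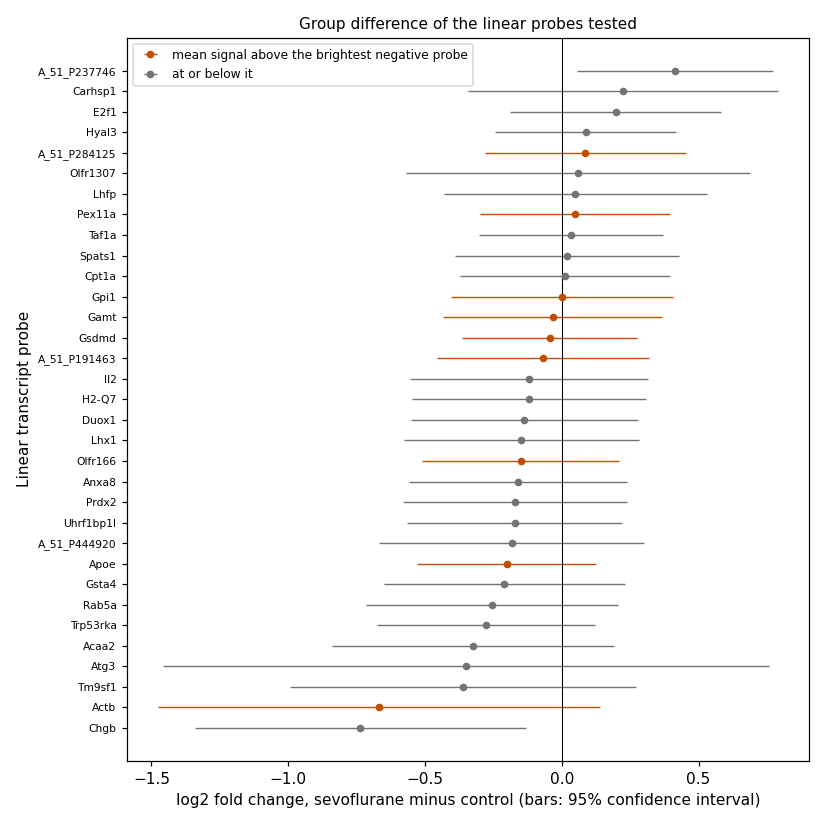
Log2 fold change, sevoflurane minus control, of 33 of the 34 linear probes tested (points), with 95% confidence intervals from limma (bars). Probes with a mean signal above the brightest negative probe are orange and the others grey. Only the intervals of Chgb (-1.34 to -0.13) and A_51_P237746 (0.06 to 0.77) leave out 0, and neither probe passed the adjusted test. Chgb was measured on 1 sevoflurane and 3 control arrays.

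By role, 0 genes of any set passed the adjusted test (limma). The 2 neural genes tested, Chgb and Lhx1, had fold changes below 0, with -0.15 (SE 0.19) for Lhx1. All 4 genes of redox defence, cell death and autophagy lay below 0, from -0.35 (SE 0.49) for Atg3 to -0.04 (SE 0.14) for Gsdmd. Of the 5 metabolic genes tested 3 lay above 0 and 2 below, and apart from Acaa2 all were within 0.05 of 0: Pex11a at 0.05 (SE 0.15), Cpt1a at 0.01 (SE 0.17), Gpi1 at 0.00 (SE 0.18) and Gamt at -0.03 (SE 0.18). Among the 7 genes best known from other tissues 5 lay below 0 and 2 above, from -0.16 (SE 0.18) for Anxa8 to 0.06 (SE 0.28) for Olfr1307. Of the other genes, E2f1 had 0.20 (SE 0.17), Carhsp1 0.22 (SE 0.25), Uhrf1bp1l -0.17 (SE 0.17), Hyal3 0.09 (SE 0.15), Lhfp 0.05 (SE 0.21) and Taf1a 0.04 (SE 0.15). The signs of E2f1, Hyal3, Lhfp, Taf1a, Olfr1307, Spats1, Gpi1, Pex11a, Cpt1a and A_51_P284125 turned with no scaling, where the median of all probes tested shifted to -0.21.

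Over the panel, 22 of 34 fold changes (64.7%) were below 0, compared with 51.7% of all probes tested. The median was -0.12, beside -0.01 for all probes tested, and ran from -0.21 without control 2 to -0.04 without control 1. It was -0.04 with normexp and -0.20 with array weights. Over the probes measured on all 6 arrays it was -0.07, and -0.08 when all spots had to be well above background. Under both of these filters the median of all probes tested was -0.01. The 10 linear probes brighter than every negative probe had a median of -0.06, and the other 24 a median of -0.14. Of the 34 tested, groups did not overlap for 1 linear probe on the higher side (A_51_P237746) and 1 on the lower side (Apoe), in a setting where 5.99% and 5.66% of all probes tested did not, respectively. Among the linear probes not tested, groups did not overlap for Bambi (higher) and for Kcnn2 and Mbp (lower). None of these was measured on any array, and the share over all probes not tested is not given here. Among the negative probes, groups did not overlap for 016 and 017 only, both higher.

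The arrays that stood out for the linear panel were controls, and they went in opposite directions. Controls 1 and 3 were the 2 highest arrays for 15 of the 34 probes (44.1%), compared with 17.5% of all probes tested. This pair of arrays was picked after the data were seen, so the share is a description and not a test. Control 1 was the highest array for 13 linear probes and control 3 for 10, whereas control 2 was the highest for 0 and the lowest for 13. Shares over all probes tested are not given for these counts of single arrays. The median deviation of the 34 probes from their 6-array mean was 0.13 in control 1, 0.16 in control 3 and -0.17 in control 2. With sevoflurane it stayed between -0.04 and -0.01. Over the circRNA probes tested it lay between -0.01 and 0.03 on every array, since the scaling is set on them. The custom probes tested followed a like order, with 0.24, 0.15 and -0.22 in controls 1, 3 and 2 and from -0.21 to -0.02 with sevoflurane. The circRNA control probes tested were at -0.11, 0.12 and 0.002 in controls 1, 3 and 2. For them control 3 was high and control 1 was not.

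**Figure D5:**
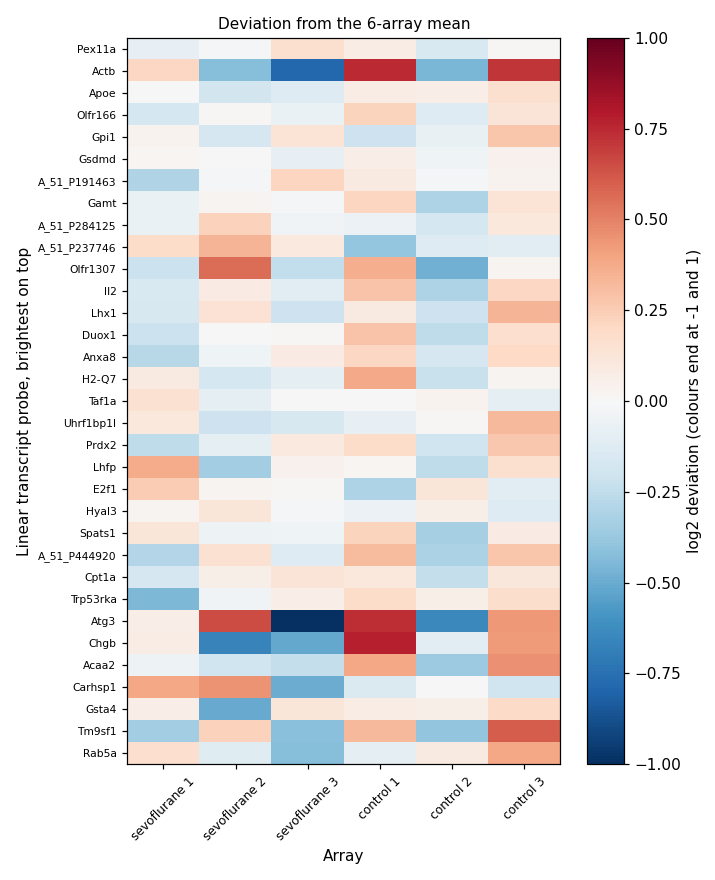
Deviation of the normalised log2 signal from the 6-array mean (colour, with red above and blue below) for 33 of the 34 linear probes tested (rows, brightest on top) on each array (columns). Red cells gather in controls 1 and 3, where Actb, Chgb, Acaa2 and Atg3 were high, and the lowest cell is Atg3 on sevoflurane 3.

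Among the tested probes reported, Atg3 varied most between arrays, 3.93-fold from the lowest to the highest array. It read 0.164, 0.246 and 0.0665 with sevoflurane and 0.261, 0.100 and 0.212 in controls, so that sevoflurane 3 and control 2 were low in either group. On sevoflurane 3 none of its 10 spots was well above background, and on the arrays where it was high all 10 were. The difference between the groups was far smaller than the spread within them, and its sign turned to 0.18 without sevoflurane 3. The place on the slide was read from a barcode in the file headers and is not stated in the labels. By that reading all sevoflurane arrays and control 1 lay in row 1 and controls 2 and 3 in row 2. The high controls then came from different rows. With the row as a block, which sets the sevoflurane arrays against control 1 alone, that 1 array decides every value and is assumed to vary like the others. In that fit 0 linear probes passed the adjusted test and the smallest adjusted p was 0.547 (limma).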

How the data were processed

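RNA from 6 hippocampus samples (3 sevoflurane, 3 control) was measured on 1-colour Agilent arrays. The scanner files were written by Agilent Feature Extraction 11.0.1.1, per the file headers, and the deposited processed signal is an intensity after that software's background subtraction. The submitters' processing notes name limma, without its settings. The deposited value table lists none of the linear probes and was not used.

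Log2 processed signals were averaged over the spots of a probe after leaving out spots marked as outliers (120 of 3000 linear spot readings) and set to the array's 75th percentile over circRNA probes. No linear spot was saturated. One fit (limma 3.58.1 in R 4.3.3) covered the 12018 circRNA, linear, circRNA control and custom probes measured on 3 or more arrays. It was tested on simulated data. Precision is limited by having 3 arrays a group.

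The members and lists were chosen with earlier results of these data known. Named were the 5 genes given with the panel (Actb, Apoe, Chgb, Acaa2 and Trp53rka), the 8 brightest probes and the 8 with the smallest unadjusted p, with the values of every array or their range. Remaining probes were given by level or fold change. For 1 linear gene, which is among the 8 brightest, no values are given here, though it counts in all totals. Probe sequences were not analysed here. Alternatives covered the scaling, normexp with an offset of 50, the filter, the spot average, the options of limma, blocks and each array left out.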

Additional observations from a re-analysis of the deposited data

How the results depend on the processing

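The counts of linear probes higher and lower at an adjusted p under 0.05 (limma) were 0 under all 20 alternatives run, of which the slide row block rests on control 1 alone for its control arm, and no adjusted p of a linear probe went below 0.0631 (Chgb, array weights). Under the replicate block 0 linear probes passed, the smallest adjusted p was 0.413 (limma) and 3 probes had an unadjusted p under 0.05. The share of all probes tested at that unadjusted limit is not given for this fit. Over 11921 circRNA probes the replicate numbers gave no sign of pairing. Deviations from the group mean correlated at 0.10, 0.04 and -0.11 between arrays of the same number, and some arrays correlated better with another number. Such correlations were not computed for the linear probes. There the replicate block lowered the SE of Chgb (0.27 to 0.18) and Actb (0.36 to 0.27) and raised that of Apoe (0.14 to 0.18) and Gsdmd (0.14 to 0.17). The deposited value table could not be run for want of these probes. Groups that do not overlap numbered 0 on the higher side with no scaling, and on the lower side 2 with no scaling, 2 with median scaling and 0 with normexp. The 27 probes measured on all arrays became 25 when all spots had to be well above background and 35 when any spot sufficed, and the median percentile of 31.2 lay between 30.4 and 32.3 with single arrays left out. Controls 1 and 3 were the 2 highest arrays for 15, 14 and 13 probes with median scaling, quantile normalization and normexp. This count of probes was added after the data were seen, and its share over all probes tested is not given for these settings.

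Signs turned as follows among the 33 probes reported; the replicate block, the filters and the options on trend and robust fitting leave a fold change as it is by construction. With no scaling, which shifts all probes alike and their median to -0.21, E2f1 came to -0.0086, Spats1 to -0.19, A_51_P284125 to -0.12, Olfr1307 to -0.15, Hyal3 to -0.12, Gpi1 to -0.20, Cpt1a to -0.19, Pex11a to -0.16, Lhfp to -0.16 and Taf1a to -0.17. With array weights Spats1 came to -0.0749, Gpi1 to -0.21, Cpt1a to -0.0824 and Lhfp to -0.14. With the slide row block, against control 1 alone, Spats1 came to -0.21, Olfr1307 to -0.33, Cpt1a to -0.10 and Pex11a to -0.0499. With the median of the spots Spats1 came to -0.0055 and Cpt1a to -0.0725, and with normexp Cpt1a to -0.0181. With each array left out, the values ran from -0.76 to 0.18 for Atg3, -0.19 to 0.0641 for A_51_P191463, -0.14 to 0.13 for Spats1, -0.26 to 0.0371 for H2-Q7, -0.0095 to 0.16 for A_51_P284125, -0.20 to 0.25 for Olfr1307, -0.10 to 0.14 for Gpi1, -0.10 to 0.10 for Cpt1a, -0.0221 to 0.0988 for Pex11a, -0.19 to 0.0666 for Gamt, -0.13 to 0.23 for Lhfp and -0.0311 to 0.0944 for Taf1a. They kept their sign but ran from -1.06 to -0.44 for Actb, -0.97 to -0.53 for Chgb, -0.59 to -0.18 for Acaa2 and -0.38 to -0.12 for Trp53rka. The cause was not tested.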
